A study of Rattus norvegicus with 8 samples.

Results

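The Ifit, Mx and Oas antiviral effectors are proteins that cells make in response to interferon and that act on viral RNA or viral particles directly. They were followed here in the brains of Wistar rats, adult males weighing 250 to 300 g. The members are Ifit1, Ifit2, Ifit3, Mx1, Mx2, Oas1a, Oas1b, Oas2, Oasl and Oasl2, and a probe set was taken where the platform annotation gives it a single symbol among these 10. The rule found 10 probe sets for 8 of the 10 genes, out of 31099 probe sets and 14217 named genes on the array. No probe set carries Oas2 or Oasl2 as its single symbol, and these genes are not analysed here.

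In 1 group, 4 arrays, the striatum had been injected with 5 µl holding 50000000 particles of a baculovirus vector that had first been exposed to ultraviolet light of 254 nm for 1 hour. In the other group, also 4 arrays, the same volume of phosphate-buffered saline (PBS) had been injected. Both groups therefore share the needle injury, and both were collected 48 hours after injection. The comparison asks what the inactivated vector adds to the injection itself. Baculoviruses are insect viruses that enter mammalian cells without replicating there. Inactivation had been checked on a glioma cell line, per the labels. The study used 7 rats and gave PBS on the opposite side of the brain, per its design text, but the labels tie no array to a rat. If no other rats were used, some of the 8 arrays must share an animal, and which ones is not known. A PBS sample may thus come from a brain that received the vector on its other side. Whether the vector changed levels on the PBS side was not tested, and PBS may not stand for a brain without vector. The p-values below treat the 8 arrays as independent and measure only the spread between these samples.

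As background, a cell that senses viral nucleic acid secretes type I interferon. The interferon binds the Ifnar1 and Ifnar2 receptor chains, and a complex that includes Stat2 and Irf9 then carries the signal to the nucleus. It binds the interferon-stimulated response element in the promoters of its target genes, among which the Ifit, Mx and Oas families are standard readouts. Ifit proteins bind viral RNA and block its translation, Mx proteins are dynamin-like GTPases that trap viral nucleocapsids, and Oas enzymes sense double-stranded RNA and make short oligoadenylates.

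Promoter sequence is shown first because members of these families are known targets of this element. RefSeq promoter windows on the GRCr8 build, running from 250 bases before to 50 bases after the annotated start, were matched for 6 of the 10 members, namely Ifit3, Mx1, Oas1a, Oas1b, Oasl and Oasl2. The core of the element was searched as GAAANNGAAA on both strands, and overlapping matches were each counted. The windows of the 4 members that were also tested on the arrays follow 5′ to 3′ on the gene's strand, with matched bases in capitals.
Ifit3, chr1:241527076-241527375, plus strand: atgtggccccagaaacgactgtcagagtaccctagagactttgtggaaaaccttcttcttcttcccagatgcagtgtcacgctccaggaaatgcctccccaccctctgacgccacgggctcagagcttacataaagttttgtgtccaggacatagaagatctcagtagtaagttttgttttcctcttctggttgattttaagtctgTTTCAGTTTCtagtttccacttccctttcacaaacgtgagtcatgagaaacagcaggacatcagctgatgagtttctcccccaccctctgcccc
Mx1, chr11:50294557-50294856, minus strand: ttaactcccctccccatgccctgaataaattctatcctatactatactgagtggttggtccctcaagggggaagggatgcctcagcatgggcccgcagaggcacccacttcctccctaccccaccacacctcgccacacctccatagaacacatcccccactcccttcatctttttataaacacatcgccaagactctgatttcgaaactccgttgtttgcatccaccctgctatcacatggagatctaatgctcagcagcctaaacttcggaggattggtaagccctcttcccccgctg
Oas1a, chr12:41330216-41330515, plus strand: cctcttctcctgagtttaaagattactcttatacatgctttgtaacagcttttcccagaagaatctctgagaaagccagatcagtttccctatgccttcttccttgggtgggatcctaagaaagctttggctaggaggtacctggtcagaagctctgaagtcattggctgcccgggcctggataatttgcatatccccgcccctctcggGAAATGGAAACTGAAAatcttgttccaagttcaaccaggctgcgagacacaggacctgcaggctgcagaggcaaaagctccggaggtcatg
Oasl, chr12:47356243-47356542, minus strand: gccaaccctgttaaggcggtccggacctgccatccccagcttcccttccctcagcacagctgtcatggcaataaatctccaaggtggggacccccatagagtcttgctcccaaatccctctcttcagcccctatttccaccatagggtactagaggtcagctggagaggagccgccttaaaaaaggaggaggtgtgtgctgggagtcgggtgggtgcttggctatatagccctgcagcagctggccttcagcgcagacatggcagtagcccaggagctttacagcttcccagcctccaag

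Matches were present in 4 of the 6 windows. Ifit3 held 1, on the strand opposite to the gene, between positions -44 and -35 counted from the annotated start as 0. Oas1a held 2 overlapping matches, from -41 to -32 and from -35 to -26, in the run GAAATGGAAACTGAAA. Oas1b held the same run of letters, with its matches from -59 to -50 and from -53 to -44. Oasl2 held 1 match on the opposite strand, from -151 to -142. No match to these letters lay in the windows of Mx1 and Oasl. Of all 33469 rat promoter windows of 300 bases, 1312 held the motif, or 3.92%. Counted by gene and not by window, 36 of 57 other interferon-stimulated genes held it in any of their windows. A match is a string of letters and not a measured binding site, and its part in the levels described below was not tested.

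**Figure D1:**
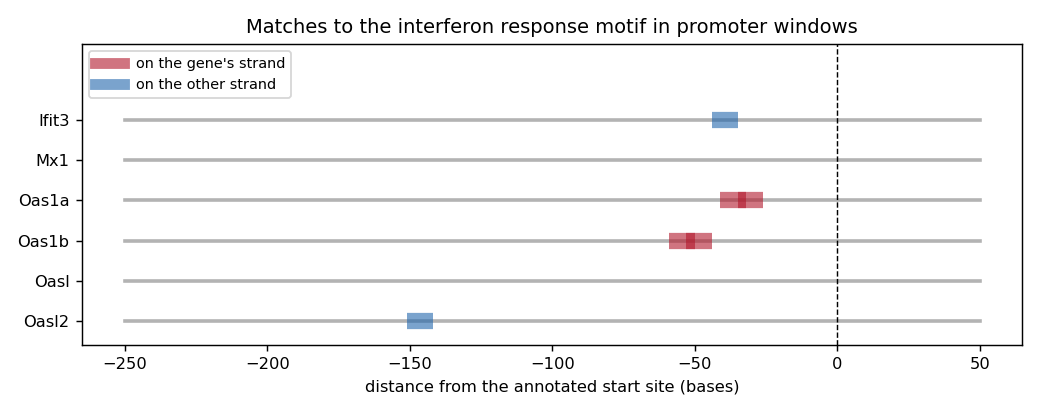
Positions of matches to GAAANNGAAA in the promoter windows of 6 members; the horizontal axis is the distance from the annotated start in bases, each grey line is a window of 300 bases, and coloured blocks are matches on the gene's strand or on the other strand. Ifit3, Oas1a and Oas1b held matches within 60 bases of the start, Oasl2 held one farther upstream, and Mx1 and Oasl held none.

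Levels below are deposited intensities on a linear scale. Each array had nearly the same trimmed mean of about 100, and the sources used here do not state how the values were scaled. Differences are on a log2(intensity + 16) scale, where the change of a dim probe set is understated, and were tested with limma over 18625 probe sets whose mean exceeded an intensity of 26.0. Any pair of arrays correlated at an r of at least 0.97. Of the labelled tissue's markers, all 9 striatal projection neuron genes with a probe set were above that level, among them the enkephalin gene Penk, between 1310 and 1670 after inactivated baculovirus and between 1460 and 1740 after PBS. Markers of other brain regions were present too. The cortical gene Slc17a7 lay between 909 and 1270 after inactivated baculovirus and between 454 and 1110 after PBS, and the choroid plexus gene Ttr lay between 1560 and 1970 on 7 arrays and at 47.7 on PBS replicate 4. Of the 10 member probe sets, 9 were tested, for 7 genes, and the probe set of Oas1b fell below the filter.

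The antiviral effectors had higher means after inactivated baculovirus in 9 of 9 tested probe sets, but none passed the test. Higher means were found for 53.7% of all probe sets tested. The 9 probe sets cover 7 genes and moved together across the arrays, as described below, so they are not 9 independent observations. The median log2 difference was 0.45 over the members and 0.0108 over all probe sets tested. At an adjusted p under 0.05, 0 of the 9 were called, against 0% of all probe sets, with limma adjusted p between 0.686 and 0.86. At an unadjusted p under 0.05, 2 were higher, Ifit3 and Oasl, where 2.51% of all probe sets were. No member separated the groups: they overlapped in 9 of 9, and 1.55% of all probe sets were higher without overlap.

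**Figure D2:**
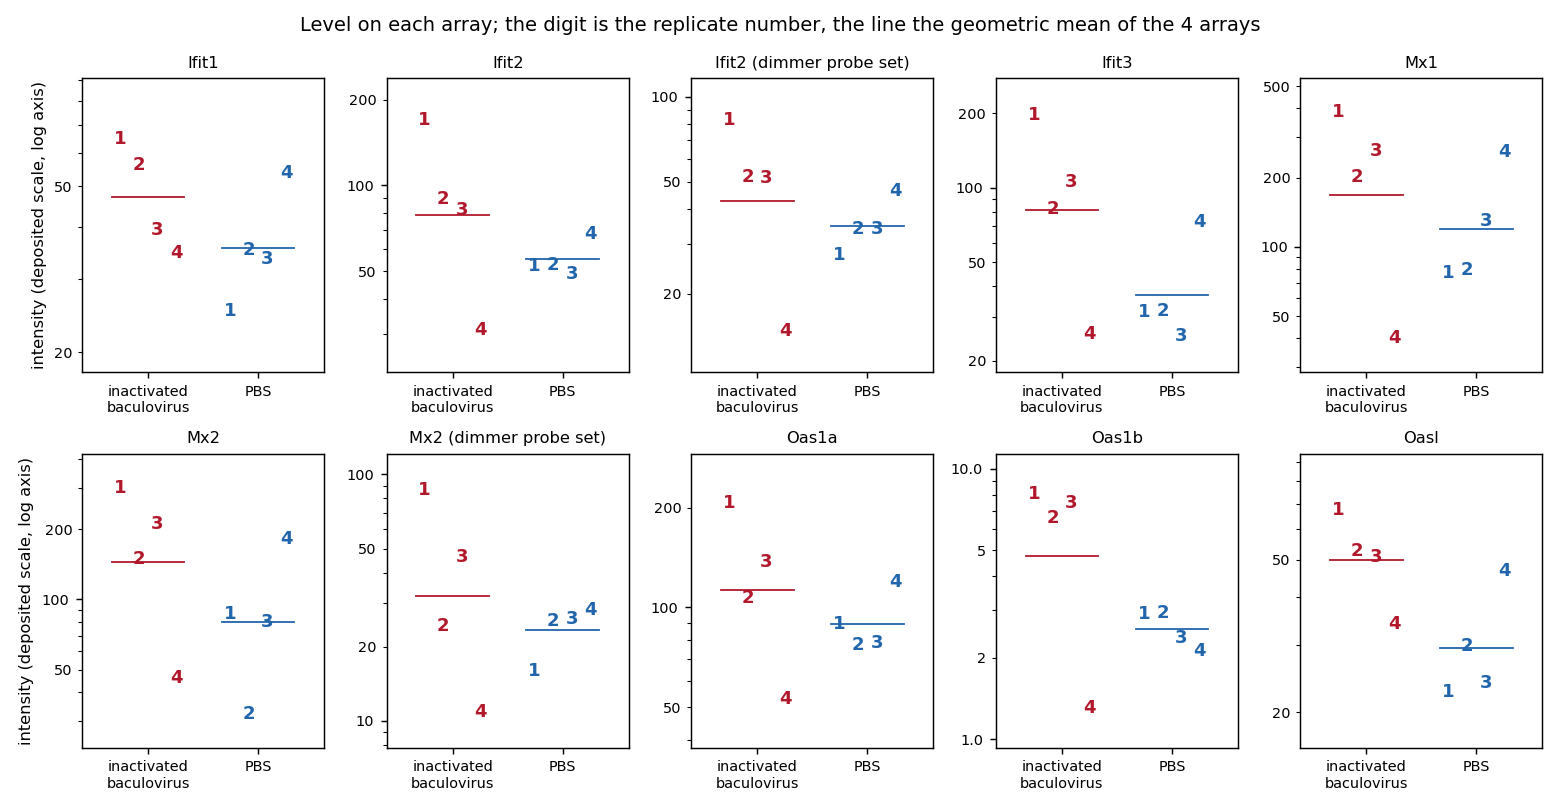
Intensity of each of the 10 member probe sets (log axis, deposited scale) in the 4 arrays after inactivated baculovirus, left in each panel, and the 4 after PBS, right; digits are replicate numbers and lines are geometric means. Baculovirus replicate 1 was highest in all 10 panels, baculovirus replicate 4 was the lowest of its group in all 10, and the groups overlapped in each.

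Among the Ifit genes, Ifit3 had the largest difference. Ifit3, whose human counterpart stabilises IFIT1, was at 198, 82.0, 106 and 25.6 on the 4 baculovirus arrays and at 31.5, 31.7, 25.2 and 72.7 on the 4 PBS arrays, each in the order of the replicate numbers 1 to 4. Baculovirus replicates 1, 2 and 3 lay above every PBS array, and baculovirus replicate 4 lay below 3 of the 4 PBS arrays. The 4 baculovirus arrays averaged 103 ± 71.7 and the 4 PBS arrays 40.3 ± 21.8 (SD). The log2 difference was 0.92, a 1.9-fold change with a 95% interval of 0.10 to 1.74 on the log2 scale, and it did not pass in limma (adjusted p = 0.717). An exact two-sided permutation test for Ifit3 gave p = 0.171, where 4 against 4 arrays allow no p below 0.0286.

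Ifit1, which binds viral RNA with an incompletely capped 5′ end, varied less. It was at 64.8, 56.3, 39.3 and 34.6 after inactivated baculovirus and at 25.1, 35.1, 33.4 and 53.8 after PBS. Every baculovirus array lay above the PBS median, but PBS replicate 4 lay above 2 of them. The log2 difference was 0.29 ± 0.18 (SE, limma adjusted p = 0.774).

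Ifit2, which in mice limits viral spread in the brain, is read by a pair of probe sets. The one with the higher mean was at 170, 89.3, 82.0 and 30.9 after inactivated baculovirus and at 52.3, 52.7, 49.0 and 67.6 after PBS. The other was at 82.9, 52.1, 51.7 and 14.8 after inactivated baculovirus and at 27.4, 33.9, 33.9 and 46.3 after PBS. In both, baculovirus replicates 1 to 3 lay above every PBS array and baculovirus replicate 4 below every PBS array. Their log2 differences were 0.45 ± 0.29 and 0.27 ± 0.27 (SE, limma adjusted p = 0.78 and 0.859), and across the 8 arrays they correlated at r = 0.967.

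The Mx genes had the widest range. Mx1, which in rats encodes a nuclear protein active against influenza virus, was at 386, 201, 262 and 40 after inactivated baculovirus and at 77.4, 79.6, 129 and 259 after PBS. Its highest array was 9.65 times its lowest, and both of these were baculovirus arrays. PBS replicate 4 was at nearly the level of baculovirus replicate 3. The log2 difference of 0.48 ± 0.49 was no larger than its error (SE, limma adjusted p = 0.86).

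Mx2, the cytoplasmic rat Mx protein, is also read by a pair of probe sets. The one with the higher mean was at 300, 149, 211 and 46.2 after inactivated baculovirus and at 86.5, 32.4, 79.8 and 181 after PBS. The other was at 86.4, 24.2, 46.3 and 10.9 after inactivated baculovirus and at 15.9, 25.4, 26.0 and 28.1 after PBS. The probe sets differed in their lowest array, which was PBS replicate 2 in the first and baculovirus replicate 4 in the second, and their correlation of r = 0.764 was below that of the Ifit2 pair. The log2 differences were 0.74 ± 0.45 and 0.37 ± 0.30 (SE, limma adjusted p = 0.775 and 0.819).

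Among the Oas genes, Oasl had the smallest p of all members. Oasl belongs to the synthetase family by sequence, and its human counterpart makes no oligoadenylate. It was at 67.3, 52.8, 50.7 and 34.0 after inactivated baculovirus and at 22.6, 29.8, 23.8 and 46.8 after PBS. Only baculovirus replicate 4 and PBS replicate 4 crossed, so that 3 of 4 baculovirus arrays lay above every PBS array and the fourth lay above 3 of 4. The log2 difference was 0.53, with a 95% interval of 0.15 to 0.91 (limma adjusted p = 0.686), and the exact two-sided permutation test gave p = 0.0571.

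Oas1a, a synthetase, was at 207, 107, 137 and 52.9 after inactivated baculovirus and at 89.3, 77.0, 78.0 and 119 after PBS. PBS replicate 4 lay above baculovirus replicates 2 and 4. The log2 difference was 0.30 ± 0.26 (SE, limma adjusted p = 0.827).

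Oas1b, whose mouse counterpart is known for flavivirus resistance, was dim on every array. It was at 8.10, 6.59, 7.45 and 1.30 after inactivated baculovirus and at 2.91, 2.93, 2.36 and 2.11 after PBS. Baculovirus replicate 1 was again the highest and replicate 4 the lowest of the group, but here PBS replicate 4 was the lowest PBS array. With a mean at the 8.49th percentile of all probe sets it was not tested, and an exact two-sided permutation test gave p = 0.143.

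The members varied far more within a group than most probe sets did. The SD within groups was in the top 1% of all tested probe sets for 7 of the 9 and in the top 5% for all 9. The median standard error of the log2 difference was 0.292 for the members and 0.107 for all tested probe sets. The ratio of highest to lowest array ran between 2.58 for Ifit1 and 9.65 for Mx1. The 95% interval of the log2 difference held 0 for 7 of the 9, all but Ifit3 and Oasl.

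The same arrays were high and low in nearly every member. Baculovirus replicate 1 was the highest of the 8 arrays in 10 of 10 probe sets. Baculovirus replicate 4 was the lowest of its group in 10 of 10 and lay below every PBS array in 6. PBS replicate 4 was the highest PBS array in 9 of 10, the exception being Oas1b, and lay above baculovirus replicate 4 in 10 of 10. With each probe set set to a mean of 0, the average log2 level of the 9 tested probe sets was 1.04, 0.265, 0.437 and -0.768 on baculovirus replicates 1 to 4. On PBS replicates 1 to 4 it was -0.45, -0.458, -0.338 and 0.274. Across the 8 arrays, the 36 pairs of tested member probe sets correlated at r between 0.658 and 0.967, with a median of 0.882. After the group means were removed the median was 0.885, so the members moved together inside the groups as well. These points share the arrays and their scaling, and some pairs share a gene. In bulk tissue, fewer cells that make these transcripts and less transcript per cell cannot be told apart.

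**Figure D3:**
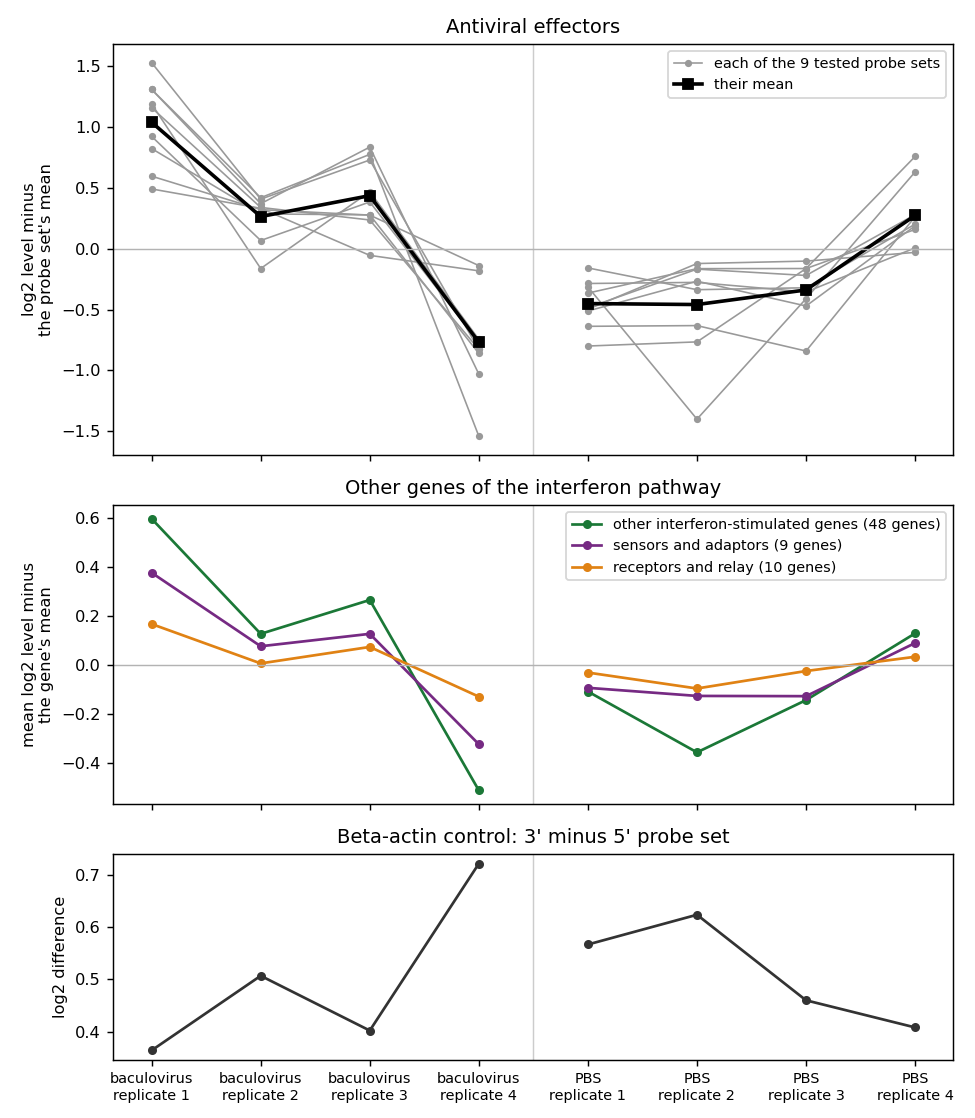
Levels on each array, 4 baculovirus arrays left and 4 PBS arrays right; lines join the values of 1 probe set or list within a group and carry no order. The top panel shows the 9 tested member probe sets and their mean, the middle panel 3 lists of other interferon pathway genes (log2 level minus its mean over the 8 arrays), and the bottom panel the log2 level of the 3′ minus that of the 5′ beta-actin probe set; baculovirus replicate 4 was lowest for the members, at -0.768, and highest for the actin difference, at 0.722.

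A control for RNA integrity and labelling, the log2 level of the 3′ minus that of the 5′ probe set of beta-actin, was 0.364, 0.507, 0.402 and 0.722 on baculovirus replicates 1 to 4. It was 0.567, 0.624, 0.46 and 0.408 on PBS replicates 1 to 4. Baculovirus replicate 1 thus had the highest member level and the lowest actin difference. Baculovirus replicate 4 had the lowest member level and the highest actin difference. The arrays' ranks by member level, highest first, were 1, 4, 2 and 8 after inactivated baculovirus and 6, 7, 5 and 3 after PBS. Their ranks by actin difference were 8, 4, 7 and 1 after inactivated baculovirus and 3, 2, 5 and 6 after PBS. Each order was the reverse of the other, except that baculovirus replicate 2 and PBS replicate 3 were exchanged. The hexokinase control had another order, while the GAPDH control shared a part of the actin order. The hexokinase 3′ minus 5′ difference was 1.38, 1.1, 1.53 and 1.15 on baculovirus replicates 1 to 4 and 1.41, 1.38, 1.02 and 1.09 on PBS replicates 1 to 4. The GAPDH difference was -0.106, -0.0384, -0.104 and -0.0498 on baculovirus replicates 1 to 4. It was -0.036, -0.0477, -0.0817 and -0.0825 on PBS replicates 1 to 4. Its lowest arrays were baculovirus replicates 1 and 3 and PBS replicate 4. These were also the lowest for actin and the highest for the members. The spiked-in hybridisation controls separated the groups, with a mean log2 level between 7.04 and 7.77 after inactivated baculovirus and between 7.84 and 8.09 after PBS. With the actin difference as a covariate in limma, the median log2 difference of the members was 0.364 and 0 were called. The part of these controls in the spread between arrays was not tested further. The spiked-in controls differed along with the treatment, so this technical difference and the treatment cannot be told apart here. The actin covariate does not address it. Labelled RNA had been made with either of 2 kits, per the labels' protocols, and the sources used here do not say which kit served which array.

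Single arrays moved the size of the difference. Without baculovirus replicate 1 the median log2 difference of the members fell to 0.144, and without baculovirus replicate 4 it was 0.685. Without PBS replicate 1 it was 0.303, and without PBS replicate 4 it was 0.533. All 9 probe sets kept a higher mean after inactivated baculovirus whichever 1 array was left out, and none was called. Without baculovirus replicate 1 the log2 difference was 0.565 for Ifit3, 0.418 for Oasl and 0.128 for Mx1, and without baculovirus replicate 4 it was 1.35 for Ifit3, 0.663 for Oasl and 1.08 for Mx1.

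Both arrays of a number were also left out in turn, a choice made after the levels had been seen, so the results describe these arrays and are no independent evidence. Without replicate 4 of both groups, Ifit3 and Mx1 passed in limma, at log2 differences of 1.59 and 1.41 (adjusted p = 0.0451 for each). In that fit 10 of 18625 probe sets were called, or 0.0537%, all of them higher. The groups were then higher without overlap in 8 of the 9 member probe sets, all but the dimmer one of Mx2, where 7.97% of all probe sets were. Without replicate 1, 2 or 3 of both groups, 0 members were called and 0 of 9 were free of overlap, against 5.99%, 4.69% and 4.74% of all probe sets. Without replicate 1 of both groups the median log2 difference was 0.0675, and 3 of the 9 differences turned negative.

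**Figure D4:**
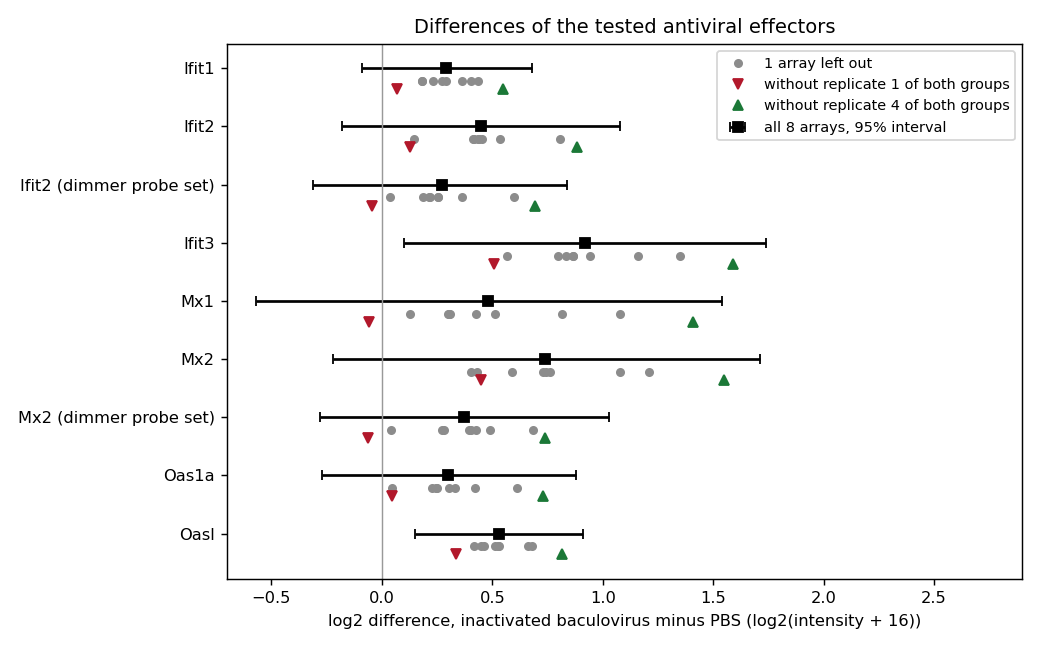
Log2 difference, inactivated baculovirus minus PBS, of the 9 tested member probe sets: squares with bars are the estimate from all 8 arrays and its 95% limma interval, grey points the values with 1 array left out, and triangles the values without replicate 1 or replicate 4 of both groups. Every square and grey point lies above 0, while 3 of the red triangles lie below it.

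The upstream steps of the interferon pathway had median differences nearer to 0. Of the interferon ligands, Ifnb1 stayed between 2.72 and 5.21 after inactivated baculovirus and between 0.895 and 4.51 after PBS. Ifng and Ifnk, the other ligands with a single-symbol probe set, also fell below the level filter. Of 10 tested genes of the receptors and their relay, 6 had a higher and 4 a lower mean, 0 were called, and the median log2 difference was 0.053. Stat2 was at 0.20 ± 0.14, the receptor chains Ifnar1 and Ifnar2 at 0.19 ± 0.12 and 0.13 ± 0.12, and Irf9 at 0.08 ± 0.19 (log2 difference ± SE).

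Of 9 tested sensors and adaptors, which detect viral nucleic acid and pass the signal on, 7 had a higher and 2 a lower mean, with 0 called and a median of 0.134. The nucleic acid sensor Zbp1 was at 0.34 ± 0.20, the ubiquitin ligase Trim25 at 0.23 ± 0.14 and the kinase Tbk1 at -0.17 ± 0.08 (log2 difference ± SE). Irf7, the factor that amplifies interferon production and is itself interferon-induced, was at 701, 386, 509 and 59.8 after inactivated baculovirus and at 223, 157, 165 and 449 after PBS. It had the same high and low arrays as the members, and its log2 difference of 0.43 ± 0.54 was within its error (SE, limma adjusted p = 0.889).

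Inhibitors of the pathway had 5 of 8 tested genes higher and 3 lower, with 0 called and a median of 0.0634. Usp18, which removes Isg15 from proteins and blocks the receptor, was at 0.61 ± 0.34, and the Stat inhibitors Pias4 and Pias2 were at 0.15 ± 0.11 and -0.14 ± 0.09 (log2 difference ± SE). A short list of partners of the Oas enzymes had 1 tested gene, Abce1, also known as a ribosome recycling factor, at -0.09 ± 0.09.

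The other interferon-stimulated genes mostly had the direction of the members. Of 48 tested, 46 had a higher and 2 a lower mean, 4 were higher at an unadjusted p under 0.05, 0 were called, and the median was 0.215. The chemokine Ccl5 was at 0.73 ± 0.30, the ATPase Tor3a at 0.36 ± 0.13 and Uba7, the enzyme that activates Isg15, at 0.36 ± 0.15, while Isg15, the ubiquitin-like modifier, was at 0.21 ± 0.35 (log2 difference ± SE). Without baculovirus replicate 1 the median over the tested genes of all these lists was 0.0486, against 0.168 over 76 genes with all arrays, and 47 genes had a higher mean, against 64. Without baculovirus replicate 4 that median was 0.292.

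The genes whose pattern over the 8 arrays was most like the mean of the members were ranked by Pearson's r among 10523 tested genes, with members and relatives left out, as a description. Usp18 came first at r = 0.991, followed by Ly6c, a surface marker of monocytes and other cells, at 0.984 and Gbp2, an interferon-induced GTPase, at 0.982. Then came Unc93b1, which carries Toll-like receptors to endosomes, at 0.98, the immunity GTPase Igtp at 0.978 and the chemokine Cxcl10 at 0.977. P4hb, a protein disulfide isomerase, the immunoproteasome subunit Psmb9, Slamf9 and Cybb, a subunit of the phagocyte oxidase, lay between 0.964 and 0.966. Usp18, Ly6c, Gbp2, Igtp, Cxcl10 and Psmb9 are on the pathway or marker lists used here. In all, 61 genes had an r above 0.9 and 10 an r below -0.9.

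**Figure D5:**
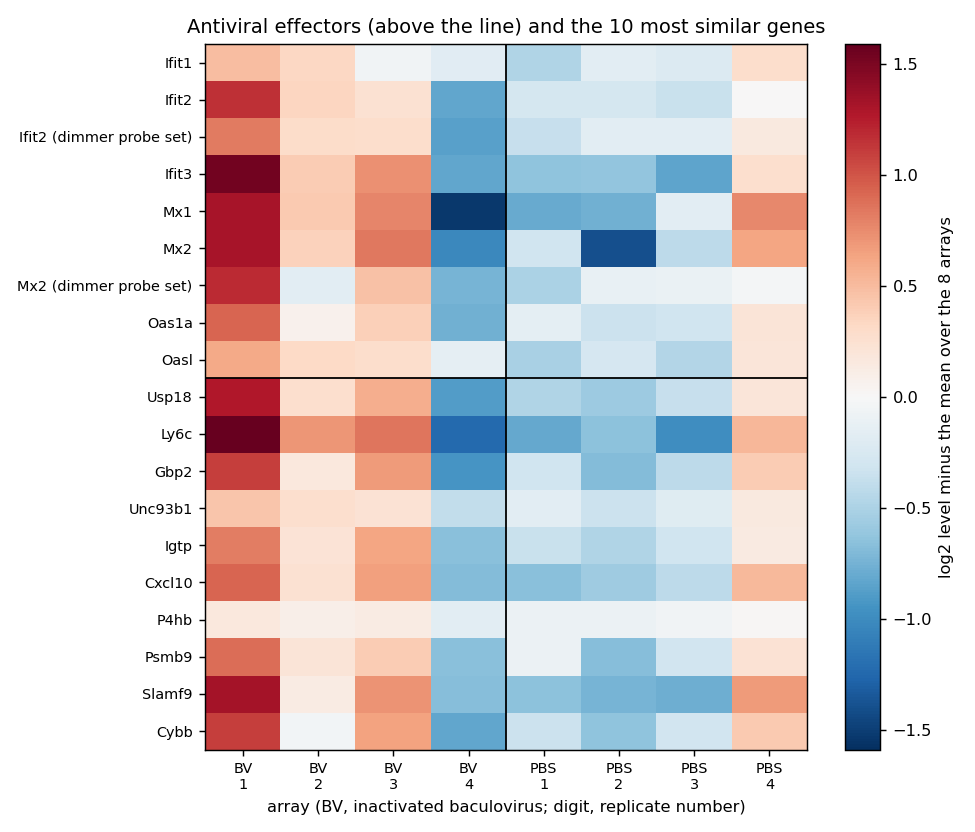
Log2 level minus the mean over the 8 arrays, as colour, for the 9 tested member probe sets (above the horizontal line) and the 10 genes most like their mean (below it); columns are the 4 baculovirus arrays (BV), left, and the 4 PBS arrays, right. Baculovirus replicate 1 is the reddest column and baculovirus replicate 4 among the bluest, in members and similar genes alike.

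Cell type markers were read beside these levels. Of 11 tested microglia markers, 10 had a higher and 1 a lower mean, 0 were called, and their summed intensity lay between 2070 and 2920 after inactivated baculovirus and between 1820 and 2800 after PBS. Monocyte and macrophage markers had 4 of 8 above the level filter, all 4 with a higher mean, and their summed intensity lay between 848 and 1560 after inactivated baculovirus and between 730 and 1450 after PBS. Their average log2 level was 0.649, 0.081, 0.362 and -0.41 on baculovirus replicates 1 to 4. It was -0.23, -0.493, -0.198 and 0.238 on PBS replicates 1 to 4. In this average, replicate 4 was the lowest baculovirus array and the highest PBS array, as for the members. Ly6c, whose highest array was 13.0 times its lowest, and Lyz2 had this pattern. Cd14 had its lowest baculovirus level on replicate 2, at 41.7. Mrc1 was lowest on replicate 2 of both groups, at 26.5 after inactivated baculovirus and 22.5 after PBS. The defining monocyte marker Ccr2 was below the filter on average, between 3.89 and 11.9 after inactivated baculovirus and between 3.54 and 9.67 after PBS. Of 12 T and NK cell markers only Cd4 was tested, and no neutrophil marker was.

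Markers of other tissue also differed between arrays. Of 7 tested markers of meninges and fibroblasts, 6 had a higher and 1 a lower mean, 3 were higher at an unadjusted p under 0.05 and 0 were called, with summed intensities between 1290 and 1520 after inactivated baculovirus and between 1000 and 1490 after PBS. Their first by p, the matrix proteoglycan gene Bgn, had a log2 difference of 0.47 ± 0.12 (SE, limma adjusted p = 0.686). The choroid plexus and ependyma list averaged 0.0577 or more in log2 level on 7 arrays, but -1.43 on PBS replicate 4. The haemoglobin gene Hbb was at 86.3, 430, 73.7 and 735 on baculovirus replicates 1 to 4 and at 63.3, 115, 46.6 and 488 on PBS replicates 1 to 4, so that replicate 4 was the highest of each group. Replicate 4 was the lowest baculovirus array and the highest PBS array for the members. Of the 9 striatal projection neuron markers, 2 had a higher and 7 a lower mean, 1 was lower at an unadjusted limma p under 0.05, and 0 were called. Their average log2 level was -0.205, -0.021, -0.148 and 0.197 on baculovirus replicates 1 to 4. It was -0.222, 0.129, 0.00187 and 0.268 on PBS replicates 1 to 4. The part of these cells and tissues in the member levels was not tested.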

How the data were processed

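RNA from 8 brain samples was measured on Affymetrix Rat Genome arrays. The deposited intensities are linear values, and the submitters' processing notes name GCOS and GCRMA. The sources used here do not state which algorithm made them, and values normalized in GeneSpring were not provided by the submitters, per the labels. With 2% trimmed at each end, every array's mean lay between 100.021 and 100.023. Control probe sets, 57 of 31099, were left out. Array medians of log2(intensity + 16) lay between 5.74 and 5.85, so no further normalization was made. Those whose mean exceeded the 40th percentile were tested in limma 3.58.1 (R 4.3.3) with lmFit and a two-sided eBayes that used a variance trend without a block, and p-values were adjusted over all 18625 by Benjamini-Hochberg. The fit was also run on simulated data with independent noise. That setting lacks the shared spread of the members, so nothing about them is drawn from it. The number of arrays limits the precision. Each member is given by every single-symbol probe set, other genes by the one with the highest mean. All members were named, and the 3 tested genes with the smallest p of each pathway list, a fixed set of pathway genes, and the 10 genes most like the members were also named, apart from genes that are not reported here. The members, lists and tests were chosen with earlier results of these data known. Alternatives were other pseudocounts (1 and 64), normalizations, level filters and variance settings, array weights, an actin covariate, the methods' t-test, a replicate block and arrays left out. The labels tie no array to a rat, so the numbers were not taken as pairs. Deviations from the group means correlated at r between -0.00511 and 0.016 for same-numbered baculovirus and PBS arrays. For differently numbered arrays r lay between -0.106 and 0.075. No combination stood out, so this check cannot tell which arrays share an animal.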

Additional observations from a re-analysis of the deposited data

How the results depend on the processing

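Over 24 alternative settings, 204 of 209 log2 differences of single member probe sets kept their direction and their side of the threshold, and limma adjusted p ran between 0.0451 and 0.999. The exceptions all came from leaving out both arrays of a number, which was chosen after seeing the data. The replicate block, the methods' t-test, the variance setting and the level filters leave each log2 difference unchanged in this balanced design. Under those settings only the p could move, so their kept directions are no check. Without replicate 1 of both groups, the differences of the dimmer Ifit2 probe set, Mx1 and the dimmer Mx2 probe set turned to -0.0427, -0.0575 and -0.062, and the cause was not tested. Without replicate 4 of both groups, 2 members were called, Ifit3 at 1.59 and Mx1 at 1.41, and 10 probe sets over the whole table. With 1 array left out, the median of the members ranged between 0.144 and 0.685 and that of the other pathway genes between 0.0486 and 0.292. With a level filter at the 60th percentile only 4 member probe sets were tested, and 4 had a higher mean. With the replicate block the median of the members stayed at 0.454, as it must in this design, and 0 were called. The methods' t-test gave 0 members under an unadjusted p of 0.05. With pseudocounts of 1 and 64 the median was 0.496 and 0.282. No detection calls were used, so signal over background is not known for dim probe sets such as that of Oas1b.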

Other observations

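The Ifitm genes, interferon-induced membrane proteins that block viral entry and are not related to the Ifit family by sequence, also had higher means after inactivated baculovirus. Ifitm3 was at 543, 414, 491 and 249 after inactivated baculovirus and at 400, 294, 296 and 398 after PBS, with a log2 difference of 0.24 ± 0.19 (SE). Ifitm1, Ifitm2 and Ifitm10 were at 0.29 ± 0.20, 0.17 ± 0.12 and 0.14 ± 0.12. None passed (limma adjusted p between 0.787 and 0.826).

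A further probe set carries 2 Oas1 symbols in the annotation and was therefore left out of the members. It was at 58.8, 41.5, 45.5 and 21.5 after inactivated baculovirus and at 29.7, 33.7, 27.0 and 48.6 after PBS, and its log2 difference was 0.16 ± 0.19 (SE, limma adjusted p = 0.88). As for Oas1a, baculovirus replicate 1 was the highest array, baculovirus replicate 4 the lowest, and PBS replicate 4 the highest PBS array. Unlike in Oas1a, PBS replicate 4 also lay above baculovirus replicate 3.

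Without replicate 4 of both groups, a choice made after seeing the data, 8 of the 10 probe sets called have a single symbol. Beside Ifit3 and Mx1 they were Ly6c at 1.87, Irf7 at 1.45, Slamf9 at 1.45, Cxcl10 at 1.15, Igtp at 0.93 and Actr1a, a dynactin subunit, at 0.66 (log2 difference, limma adjusted p between 0.00825 and 0.0488).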
